A study of Mus musculus with 4 samples.

Results

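Mitosis and cytokinesis genes were examined in the heart ventricles of mouse embryos that lack Hdac2, a class I histone deacetylase that removes acetyl groups from histones. The group comprised 40 named genes in 8 roles: cyclin-CDK and mitotic kinases, spindle checkpoint, anaphase-promoting complex and separase, chromosomal passenger complex, centromere and kinetochore, motors and spindle assembly, cytokinesis, and chromosome structure. A probe set was taken when the platform annotation gave it the symbol of 1 of these genes and of no other. This selected 85 of 45037 probe sets and 39 of the 40 genes, since Ccnb1 was matched by none. The rule reads gene names and no measured value, while the genes themselves were proposed with earlier results of these data known.

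The KO group consisted of 2 arrays, each made from ventricles pooled from 3 Hdac2-deficient embryos. The WT group consisted of 2 arrays, each made from ventricles pooled from 2 wild-type littermates. Both groups were taken at embryonic day 17.5 on a mixed C57BL/6 and SV129 background, and 6 µg of total RNA was labelled per array. The kind of Hdac2 allele and the cells in which it acts are not given in the sources used here, and the source field of the KO samples also carries the wild-type abbreviation.

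Cells enter mitosis when cyclin B activates Cdk1. The spindle checkpoint then holds the cell until kinetochores on every chromosome are attached to microtubules, after which Cdc20 and the anaphase-promoting complex release separase and the cell divides. In the mouse, cardiomyocytes still proliferate in the fetal ventricle and most leave the cell cycle soon after birth, and other cell types of the fetal heart divide as well.

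Hdac2 itself was read first. Its brightest probe set gave signals of 31.4 and 21.0 on the KO arrays, neither called Present, against 1188.5 and 1421.1 on the WT arrays. Taking the KO signals as a ceiling, the estimate was 50.6-fold lower in KO (limma adjusted p 2.32e-09). The 4 arrays called between 42.4% and 43.7% of probe sets Present. The 3′ over 5′ signal ratio, a sign of RNA quality, was 2.75 and 2.42 for actin on KO arrays, against 1.85 and 2.32 on WT arrays. For Gapdh it was 1.18 and 1.01 on KO arrays, against 0.84 and 0.95 on WT arrays. Both ratios were higher on each KO array than on either WT array, and the part of this in the values below was not tested. The summed signal of 9 cardiomyocyte markers was 102300 and 108500 in KO ventricles, against 107400 and 104900 in WT ventricles, and 0 of the 9 passed the test. Skeletal muscle markers summed to 736.2 and 717.9 in KO samples, against 9637 and 8971 in WT samples. Of 7 tested, 7 fell (5 without the filter on detection, 4 without the variance trend). Tnnc2, Tnnt3, Mylpf, Myh3 and Neb were called Present on both arrays in WT only. These genes so entered the fit through the group where they are high. Only Tnni2 and Myh8 were Present on all 4 arrays, and both fell in a fit of such probe sets. Bone and cartilage markers summed to 58.8 and 81.0 in KO samples, against 251.7 and 292.8 in WT samples, and 3 of 4 fell. Those 3, Mmp13, Dmp1 and Ibsp, were called Present in WT only and so entered the fit through the group where they are high. Of the 4, 0 passed without the filter on detection, 1 without WT replicate 1 and 1 without WT replicate 2, and none was Present on all 4 arrays. Of the other marker lists, 0 of 6 endothelial, 0 of 4 macrophage, 0 of 4 smooth muscle and 0 of 5 epicardial genes passed in limma, while the fibroblast genes Col1a1 and Col1a2 (2 of 7) fell and the erythroid gene Hbb-y (1 of 3) rose. Hbb-y was called Present on both arrays in KO only and so entered the fit through the group where it is high. The fibroblast and erythroid calls were lost without the filter on detection and without the variance trend. The Col1a2 call was also lost without WT replicate 1 or WT replicate 2, and the Hbb-y call without KO replicate 1, KO replicate 2 or WT replicate 2. The part of these other tissues in the values of the mitotic genes was not tested.

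Many mitotic genes share promoter elements, the CCAAT box bound by NF-Y and the cell cycle homology element (TTTGAA or TTCGAA) through which the DREAM and MuvB complexes act. RefSeq promoter sequence (GRCm38.p6) was matched by symbol for 34 of the 40 genes, in 37 windows of 250 bases before a transcription start. Aurkb, Cdc25c, Tpx2, Kif20a, Incenp and Ccna2 were not matched. The windows of 4 genes are printed because they hold both elements and these genes were among the 10 with the smallest p-values. They are written 5′ to 3′ on the gene's strand, and capitals mark CCAAT or a cell cycle homology element on either strand. Read on the reverse strand, the CCAAT box appears as ATTGG and the TTTGAA element as TTCAAA.
Ube2c: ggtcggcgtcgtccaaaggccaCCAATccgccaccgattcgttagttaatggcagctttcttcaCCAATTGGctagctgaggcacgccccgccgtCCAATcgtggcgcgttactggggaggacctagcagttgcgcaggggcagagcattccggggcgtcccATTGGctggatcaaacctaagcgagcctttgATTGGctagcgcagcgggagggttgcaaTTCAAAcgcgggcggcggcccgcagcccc
Mki67: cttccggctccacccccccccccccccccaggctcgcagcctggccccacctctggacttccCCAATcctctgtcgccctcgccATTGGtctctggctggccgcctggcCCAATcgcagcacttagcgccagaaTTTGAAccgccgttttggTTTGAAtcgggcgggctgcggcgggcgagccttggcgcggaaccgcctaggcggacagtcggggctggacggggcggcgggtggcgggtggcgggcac
Ccnb2: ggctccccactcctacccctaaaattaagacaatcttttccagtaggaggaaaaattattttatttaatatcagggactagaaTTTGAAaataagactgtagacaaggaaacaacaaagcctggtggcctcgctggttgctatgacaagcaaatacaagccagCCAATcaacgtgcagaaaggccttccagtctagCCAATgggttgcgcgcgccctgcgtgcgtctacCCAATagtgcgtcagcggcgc
Cdk1: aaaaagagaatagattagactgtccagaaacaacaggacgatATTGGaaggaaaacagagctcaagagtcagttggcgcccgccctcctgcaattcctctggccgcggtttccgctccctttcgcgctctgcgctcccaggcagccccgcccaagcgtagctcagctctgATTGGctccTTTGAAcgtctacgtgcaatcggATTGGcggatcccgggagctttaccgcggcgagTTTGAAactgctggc
The Ube2c window lies at chr2:164769679-164769928 on the plus strand. The windows on the minus strand are chr7:135716380-135716629 for Mki67, chr9:70421555-70421804 for Ccnb2 and chr10:69352913-69353162 for Cdk1. Ube2c held 6 CCAAT boxes, a pair of which overlap on opposite strands, and a TTTGAA element 29 bases before the start. Mki67, Ccnb2 and Cdk1 held 3 CCAAT boxes each, and the 3 in Ccnb2 began 87, 54 and 21 bases before the start.

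At least 1 CCAAT box was found in 29 of the 37 windows (78.4%), against 33.8% of all 32851 promoter windows. TTTGAA or TTCGAA was found in 15 of 37 (40.5%), against 17.1% of all windows, and both kinds of element in 14 of 37 (37.8%), against 6.02%. The windows of these genes also had a higher G and C content, with a median of 59.6% against 52.4% for all windows. A match describes letters in the window and is not evidence of binding.

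No mitosis or cytokinesis gene changed past the threshold in KO ventricles. Of the 62 probe sets that were called Present on both arrays of a group and so tested, 0 passed an adjusted p of 0.05 in limma, and 9 had an unadjusted p under 0.05, 7 of them higher in KO and 2 lower. Across all 19065 probe sets tested, 1.34% passed, and 7.29% were higher and 8.23% lower at the unadjusted p. The brightest tested probe set then stood for each gene. At an unadjusted p under 0.05, 6 of 39 genes were higher in KO and 2 were lower, against 15.6% of all 10184 genes in either direction (8.42% higher and 7.14% lower), where 1.3% passed after adjustment. The 8 of 39 are 20.5%, with 15.4% higher in KO (8.42% of all genes) and 5.13% lower (7.14%). The higher side rests on 6 genes at their brightest probe sets, and none passes after adjustment. One of these genes, Kif4, passed the detection rule only through the KO arrays, where it is high. The count also depended on the setting. Of the 62 probe sets, 6 had an unadjusted p under 0.05 with quantile normalization and 5 with median centring, against 9 in the main fit.

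The differences between KO and WT were small. On the log2 scale, KO minus WT, they ran from -0.43 for Tpx2 to 0.43 for Kif4, with a median of 0.078 over the 39 genes against 0.035 over all genes. The difference was above 0 for 25 of 39 genes (55.7% over all genes) and below 0 for 14. The 2 KO arrays both lay above the 2 WT arrays for 13 genes (28.0% of all genes) and both below them for 4 (20.6%), and the groups overlapped for 22. The direction of the median depended on the probe sets used. Averaged over the tested probe sets of each gene it was -0.0013, and over all 62 probe sets it was 0.0013, with 31 on each side of 0 (52.0% of all probe sets lay above 0).

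**Figure D1:**
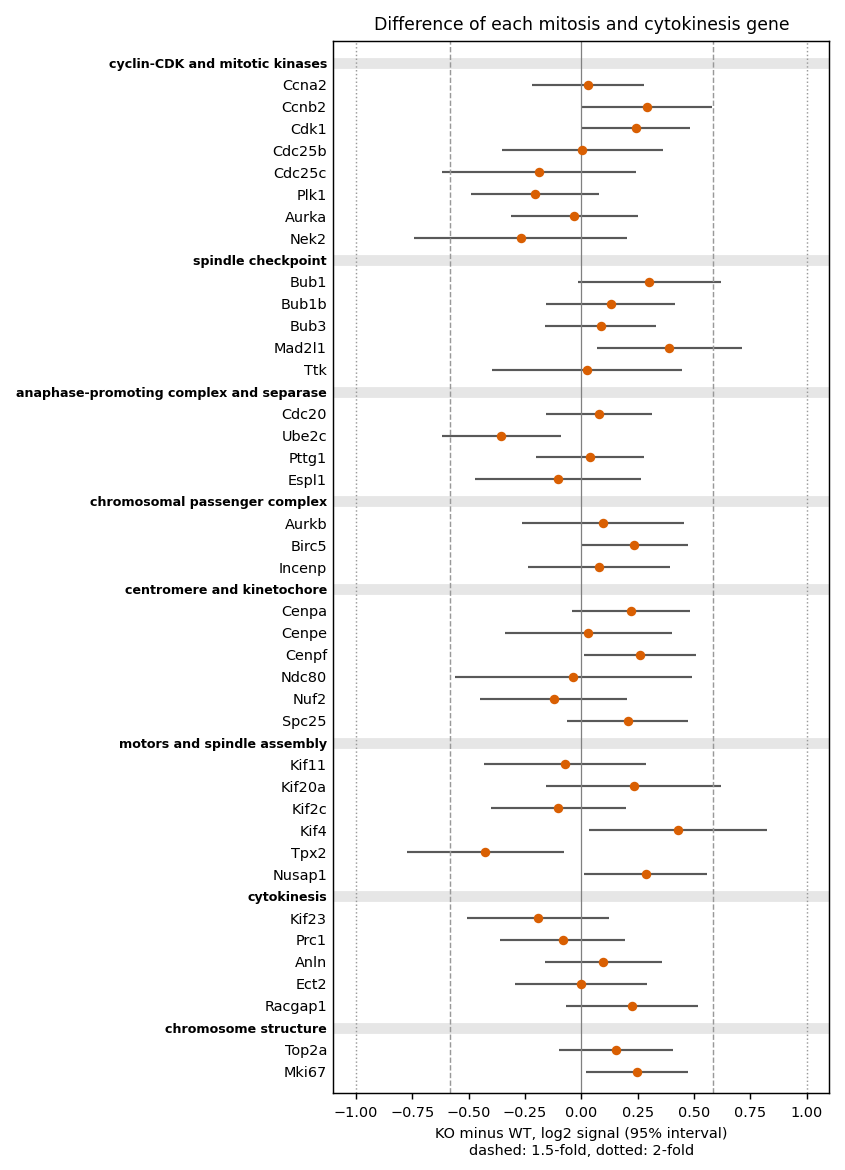
Log2 difference, KO minus WT, of the brightest probe set of each of the 39 genes, grouped by role, with 95% limma intervals. Points lie between -0.43 and 0.43, and every interval stays inside a 2-fold change in either direction.

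Under the variance model of the main fit, the precision was enough to bound most of these differences. With 2 arrays per group, that model borrows variance from other probe sets of similar signal. Without the variance trend, 3 of the 62 probe sets had an unadjusted p under 0.05 in limma, against 9 with it. Intervals under other variance models are not given here. The 95% interval lay inside a 2-fold change for 39 of 39 genes (90.0% of all genes) and inside a 1.5-fold change for 31 of 39 (56.4% of all genes). Over all 62 tested probe sets the counts were 58 (93.5%) and 39 (62.9%), and over the 23 that were not the brightest of their gene they were 19 (82.6%) and 8 (34.8%). The bound is thus that of the brightest probe sets. The widest reach of the intervals was -0.78 to 0.82 on the log2 scale over the 39 brightest probe sets. Over all 62 tested probe sets it was -1.74 to 1.24. The median standard error of the 39 was 0.136, against 0.165 for all genes. These transcripts were well detected, with 38 of the 39 brightest probe sets called Present on all 4 arrays. In bulk ventricle, fewer cells of a type and less RNA per cell cannot be told apart, so these bounds apply to the tissue and not to any cell type.

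Among the cyclin-CDK genes and kinases, the difference had a median of -0.014 over 8 genes, with 4 above 0 and 4 below. Ccnb2, a B-type cyclin that activates Cdk1 at entry into mitosis, gave signals of 746.6 and 950.5 in KO ventricles, against 686.5 and 689.8 in WT ventricles (log2 difference 0.29 ± 0.13 SE, n = 2 each, limma adjusted p 0.317). Cdk1, the kinase it activates, gave 1440.8 and 1682.9 in KO ventricles, against 1286.5 and 1349.2 in WT ventricles (0.24 ± 0.11, limma adjusted p 0.325). For both genes the KO arrays lay above the WT arrays, and KO replicate 2 was the highest of the 4. Plk1, a kinase needed for centrosome maturation and spindle formation, gave 432.9 and 409.1 in KO, against 472.5 and 498.2 in WT, a log2 difference of -0.21 ± 0.13. Its groups were apart with KO lower, the opposite side from Ccnb2 and Cdk1.

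Nek2, a kinase that separates centrosomes, had a log2 difference of -0.27 ± 0.22, with 205.5 and 253.0 in KO samples against 210.7 and 358.9 in WT samples. The WT arrays were far apart, and KO replicate 2 lay between them. The smallest difference was that of Cdc25b, a phosphatase that activates cyclin-dependent kinases, with 310.8 and 245.5 in KO samples against 259.4 and 292.6 in WT samples (0.0038 ± 0.17). Ccna2, the cyclin of S phase and early mitosis, gave 1582.4 and 1394.8 in KO samples, against 1354.4 and 1563.8 in WT samples, with overlapping groups. Aurka (-0.032) and Cdc25c (-0.19), a centrosomal kinase and a phosphatase of Cdk1, did not pass the test either. At their brightest probe sets, all 8 genes were higher on WT replicate 2 than on WT replicate 1, by a median of 0.125 on the log2 scale. Of all genes, 52.4% were. The further tested probe sets of Ccna2 (-0.014) and Nek2 (-0.16) were lower on WT replicate 2.

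All 5 spindle checkpoint genes had a difference above 0, with a median of 0.13, and 1 of the 5 had an unadjusted p under 0.05. Mad2l1, which inhibits Cdc20 until chromosomes are attached, gave 594.4 and 772.3 in KO ventricles, against 476.6 and 561.1 in WT ventricles (0.39 ± 0.15, 95% interval 0.068 to 0.71, limma adjusted p 0.238). Bub1, a checkpoint kinase at the kinetochore, gave 353.6 and 418.7 in KO ventricles, against 314.1 and 310.8 in WT ventricles (0.30 ± 0.15, limma adjusted p 0.349). KO arrays lay above WT arrays for both genes. Ttk, the kinase known as Mps1, had the smallest difference at 0.024 ± 0.20, with 222.5 and 203.0 in KO ventricles between the 254.5 and 171.6 of WT ventricles. Bub3, which brings Bub1 and Bub1b to the kinetochore, overlapped as well, with 1209.6 and 1303.0 in KO against 1261.6 and 1110.3 in WT.

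Bub1b, which encodes the checkpoint protein BubR1, held the smallest p-value among the 62 probe sets, at a probe set that was not its brightest. The dimmer probe set gave 381.1 and 423.3 in KO ventricles, against 277.2 and 279.4 in WT ventricles (0.53 ± 0.14, limma p 0.00262, adjusted p 0.0984). The brighter probe set gave 495.2 and 516.2 in KO ventricles, against 436.9 and 488.5 in WT ventricles (0.13 ± 0.13, limma adjusted p 0.675). Both probe sets had KO above WT, and their intervals overlap.

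The anaphase-promoting complex and separase genes had a median of -0.034 over 4 genes. Ube2c, the ubiquitin-conjugating enzyme that works with the complex and whose promoter is printed above, had the smallest p-value of the 39 genes. It gave 816.3 and 936.4 in KO ventricles, against 1198.4 and 1043.0 in WT ventricles (-0.35 ± 0.12, 95% interval -0.62 to -0.090, limma adjusted p 0.192). Both KO arrays lay below both WT arrays. Pttg1, the securin that holds separase inactive, had the smallest difference of the 4 at 0.038 ± 0.11, with 3670.5 and 4625.9 in KO ventricles against 3856.3 and 4178.9 in WT ventricles. Cdc20, the activator of the complex, gave 1338.1 and 1510.0 in KO ventricles, against 1331.6 and 1362.3 in WT ventricles, and Espl1, which encodes separase, differed by -0.11. At these brightest probe sets the groups overlapped for all but Ube2c. Another tested Cdc20 probe set gave 883.5 and 894.3 in KO ventricles, against 995.1 and 983.7 in WT ventricles (-0.15 ± 0.11). Its groups were apart, with KO lower.

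**Figure D2:**
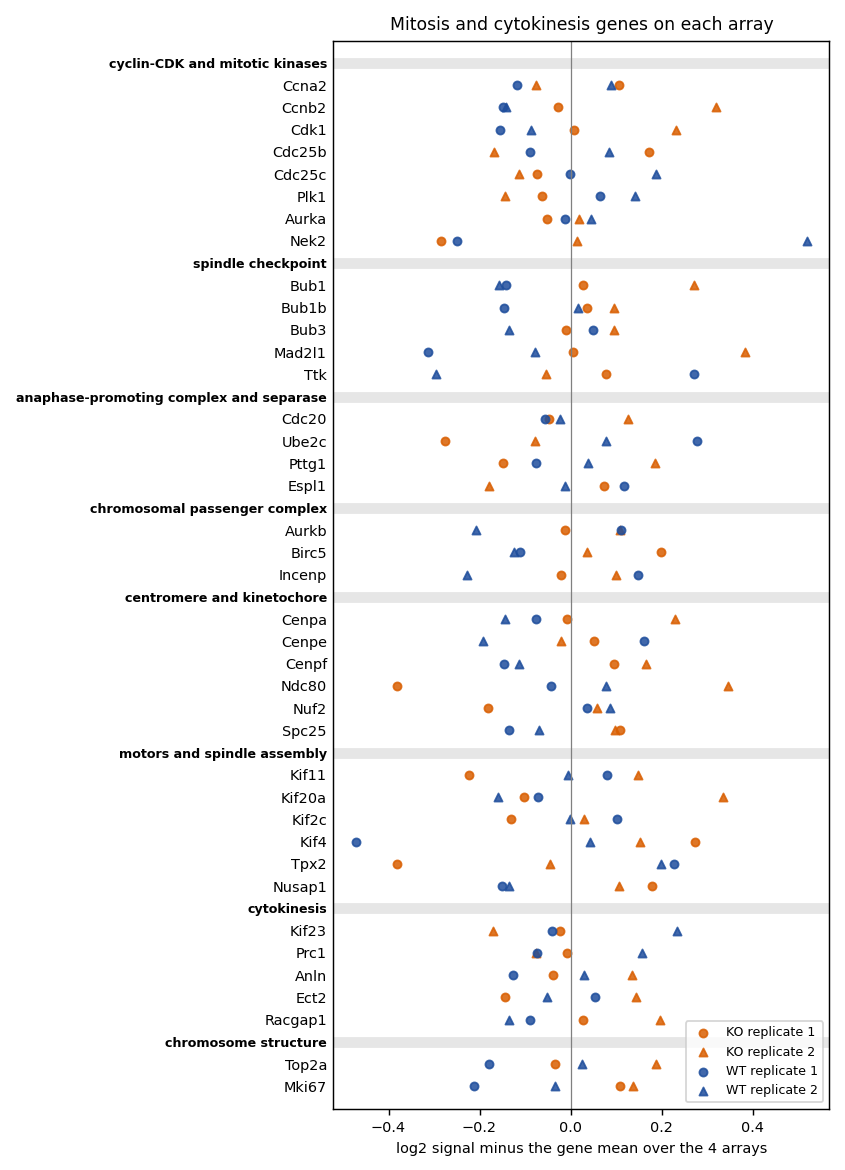
Signal of the brightest probe set of each gene on each of the 4 arrays, minus the gene's mean over the arrays, on the log2 scale, by role (KO orange, WT blue; circles replicate 1, triangles replicate 2). For 22 of the 39 genes the groups overlap.

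The 3 chromosomal passenger genes had differences above 0, with a median of 0.095 and none with an unadjusted p under 0.05. Birc5, which encodes survivin, gave 1462.3 and 1305.0 in KO ventricles, against 1178.3 and 1168.8 in WT ventricles (0.24 ± 0.11, limma adjusted p 0.325), with KO arrays above WT arrays. Incenp, the scaffold of the complex, had the smallest difference at 0.079 ± 0.15, with 544.8 and 592.0 in KO ventricles lying between 612.4 and 472.1 in WT ventricles. Aurkb, its kinase, gave 240.9 and 262.1 in KO ventricles, against 262.7 and 210.6 in WT ventricles. At their brightest probe sets, all 3 genes were lower on WT replicate 2 than on WT replicate 1, by a median of -0.32, and Birc5 by only -0.012. Of all genes, 52.4% were higher on WT replicate 2. Further tested probe sets of Aurkb (0.12) and Incenp (0.82) were higher on it as well, and another of Incenp was lower (-0.78).

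The centromere and kinetochore genes had a median of 0.117, with 4 of 6 above 0. Cenpf, a large kinetochore protein whose level peaks in G2 and mitosis, gave 860.3 and 903.9 in KO ventricles, against 727.8 and 744.5 in WT ventricles (0.26 ± 0.12, 95% interval 0.011 to 0.51, limma adjusted p 0.302). Cenpa, the centromeric histone H3 variant, gave 938.5 and 1106.5 in KO ventricles, against 895.7 and 853.7 in WT ventricles (0.22 ± 0.12). Spc25, of the Ndc80 complex that binds microtubules, gave 615.3 and 610.4 in KO ventricles, against 519.9 and 543.6 in WT ventricles (0.21 ± 0.12). The groups were apart for these 3 genes. The other members of the Ndc80 complex did not share this side, since Nuf2 differed by -0.12 and Ndc80 by -0.036, each with overlapping groups. Cenpe, a kinetochore motor, had the smallest difference at 0.030 ± 0.17, with 234.4 and 223.1 in KO against 253.2 and 198.2 in WT.

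Motor and spindle assembly genes included both ends of the range, and 3 of 6 lay on each side of 0, 2 higher and 1 lower at an unadjusted p under 0.05. Kif4, a chromosome-bound kinesin encoded on the X chromosome, gave 300.9 and 276.7 in KO ventricles, called Present, against 179.4 and 256.4 in WT ventricles, both called Absent. Taking the WT signals as a ceiling, the estimate was 1.35-fold higher in KO (0.43 ± 0.18, limma adjusted p 0.288), but this rests on WT replicate 1. The log2 difference was 0.17 without that array and 0.69 without WT replicate 2, and since Kif4 was tested through its KO calls alone, its direction is no support for a difference. The X-linked transcript Xist, at its brightest probe set, gave 547.9 and 793.7 in KO pools, against 80.5 and 90.1 in WT pools, and rose by 2.95 ± 0.19 on the log2 scale (limma adjusted p 8.10e-07). Another Xist probe set gave 413.7 and 797.1 in KO pools, against 1.3 and 6.1 in WT pools, the WT signals called Absent. The part of the pools' make-up by sex was not tested, in the Kif4 value or in any other difference between KO and WT.

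Tpx2, a spindle assembly factor that activates Aurora A, depended on its probe set. Its brightest probe set gave 211.3 and 266.7 in KO ventricles, against 322.3 and 315.8 in WT ventricles (-0.43 ± 0.16, limma adjusted p 0.234). Its next brightest gave 190.1 and 205.6 in KO ventricles, against 174.0 and 159.2 in WT ventricles (0.25 ± 0.17, limma adjusted p 0.509). The arrays of each group were apart at both probe sets, with KO lower at one and higher at the other. Nusap1, a microtubule-bundling protein, gave 598.9 and 568.8 in KO, against 476.5 and 481.3 in WT (0.29 ± 0.13, limma adjusted p 0.302), and its dim second probe set had a difference of -0.77 ± 0.45, which turns the mean of both to -0.24. Kif11, the motor that separates spindle poles, had the smallest difference at -0.073 ± 0.17, with 227.0 and 293.6 in KO against 279.8 and 263.7 in WT. Kif20a, a kinesin of the central spindle, differed by 0.23 and Kif2c, a microtubule depolymerase, by -0.10, both with overlapping groups.

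The cytokinesis genes had a median of -0.0013 over 5 genes, with none at an unadjusted p under 0.05. Racgap1, of the centralspindlin complex, gave 442.4 and 497.9 in KO ventricles, against 408.2 and 395.2 in WT ventricles (0.22 ± 0.14), with groups apart. Its centralspindlin partner Kif23 gave 412.5 and 372.2 in KO ventricles, against 407.2 and 492.5 in WT ventricles (-0.19 ± 0.15). At these brightest probe sets the partners lay on opposite sides of 0, and neither passed the test. The other tested probe set of Racgap1 differed by -0.092 ± 0.14 with overlapping groups, on the same side as Kif23. Ect2, the exchange factor that activates RhoA at the cleavage furrow, had the smallest difference of all 39 genes at -0.0013 ± 0.14, with 535.7 and 653.5 in KO against 614.3 and 570.9 in WT. Anln, the actin-binding scaffold of the contractile ring, differed by 0.097 and Prc1, which bundles central spindle microtubules, by -0.083.

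The chromosome structure genes were both above 0. Mki67, the proliferation antigen that coats mitotic chromosomes, gave 1889.7 and 1928.4 in KO ventricles, against 1513.3 and 1711.9 in WT ventricles (0.25 ± 0.11, 95% interval 0.018 to 0.47, limma adjusted p 0.289), with groups apart. Top2a, the topoisomerase that untangles sister chromatids, gave 1450.9 and 1690.8 in KO ventricles, against 1312.0 and 1511.6 in WT ventricles (0.15 ± 0.12), with overlapping groups.

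Several genes have more than 1 tested probe set, which gives a further look at each transcript. For 20 genes there were 23 further probe sets. Their median difference was -0.080, with 6 above 0 and 17 below, and 12 of 23 had the opposite sign to the brightest probe set of the same gene. All 23 pairs of intervals overlap. Incenp showed the disagreement within 1 gene, since its other probe sets differed by -0.41 and 0.53. Dim probe sets of Cenpe (-0.72 ± 0.35) and Spc25 (-0.65 ± 0.36) lay below 0, with standard errors above those of the brightest probe sets. The remaining 23 of the 85 probe sets did not meet the Present rule and had mean signals of 1.23 to 134.

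**Figure D3:**
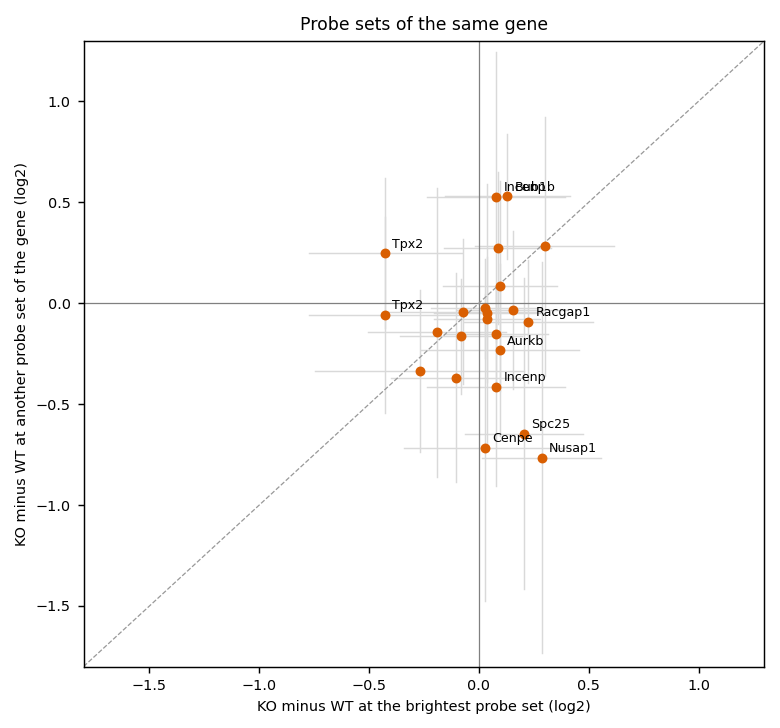
Log2 difference, KO minus WT, of each further tested probe set (vertical axis) against that of the brightest probe set of the same gene (horizontal axis), for 20 genes. Of the 23 points, 12 have opposite signs on the axes. Grey bars are 95% intervals and the dashed line marks equal values.

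Differences between replicate pools were set beside those between genotypes. The measures are unlike, since the genotype difference is between means of 2 arrays and the replicate difference is between single arrays. The median size of the KO minus WT difference was 0.153 over the 39 genes, while KO replicates differed by a median of 0.173 and WT replicates by 0.121. Over all genes these medians were 0.1722, 0.1745 and 0.1453, in that order. The KO minus WT difference exceeded both replicate differences for 12 of 39 genes (34.2% of all genes). KO replicate 2 was above KO replicate 1 for 26 of 39 genes, by a median of 0.122, where all genes had a median of 0.0039. Leaving out KO replicate 1 brought the median KO minus WT difference to 0.153, and leaving out KO replicate 2 brought it to 0.031.

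Related lists of cell cycle genes were read in the same fit. Of 33 other kinetochore and centromere genes tested, 1 passed the threshold (1.3% of all genes did), Cenpb, which binds centromeric satellite DNA. It gave 108.8 and 75.6 in KO ventricles, against 209.2 and 268.9 in WT ventricles, and fell by 1.39 ± 0.22 on the log2 scale (limma adjusted p 0.00559). The call was lost without the filter on detection (adjusted p 0.165) and without the variance trend (adjusted p 0.173), and the limma adjusted p over all alternatives ran from 7.90e-06 to 0.173. Its neighbour by p-value in the list, Cenpt, gave 232.6 and 252.6 in KO, against 345.9 and 336.7 in WT (-0.49 ± 0.15, limma adjusted p 0.133). The other 32 genes of the list did not pass.

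None passed among 18 condensin and cohesin genes (median 0.12), 23 other spindle, motor and cytokinesis genes (0.092), 30 other mitotic kinase and anaphase-promoting complex genes (0.093), 22 transcriptional regulators of mitotic genes (0.038) or 27 S-phase genes (0.14), in limma. At an unadjusted p under 0.05, these lists had 1, 5, 6, 5 and 5 genes, in that order, against 15.6% of all genes. Without KO replicate 1, Stmn1, Knstrn and Pcna passed (limma adjusted p 0.0439, 0.0297 and 0.0406), all higher in KO. Mapre1, a microtubule plus-end protein, had the smallest p of these lists in the main fit. Its brightest probe set gave 1448.2 and 1526.6 in KO ventricles, against 1092.3 and 1097.8 in WT ventricles (0.44 ± 0.11, limma adjusted p 0.065). Another gave 1031.8 and 1323.4 in KO ventricles, against 1150.0 and 1082.4 in WT ventricles, with overlapping groups (0.067 ± 0.13). The dimmest tested probe set of Mapre1 differed by 0.18 ± 0.17. Cdkn1a, the cyclin-dependent kinase inhibitor p21, gave 269.4 and 232.3 in KO, against 338.1 and 398.2 in WT (-0.55 ± 0.16, limma adjusted p 0.113). Fzr1, the anaphase-promoting complex activator Cdh1, gave 178.4 and 160.4 in KO, against 246.7 and 235.9 in WT (-0.51 ± 0.17, limma adjusted p 0.165). The replication helicase genes Mcm3 and Mcm2 lay on opposite sides, at 0.38 and -0.38.

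**Figure D4:**
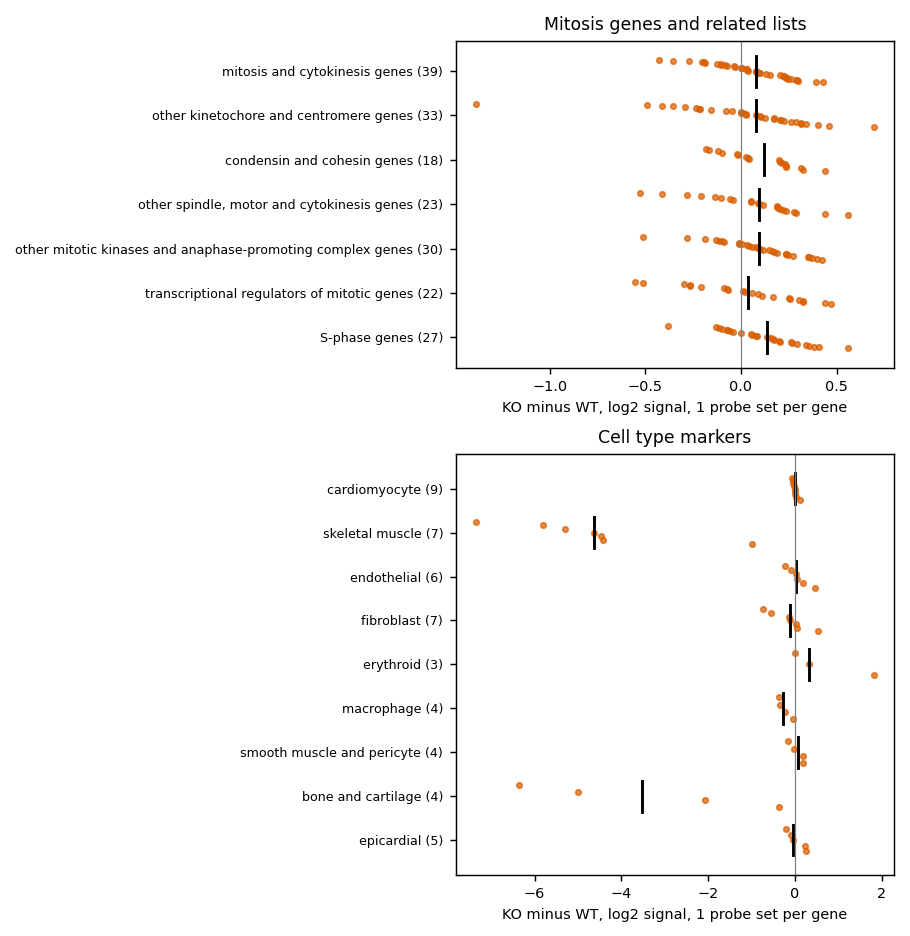
Log2 difference, KO minus WT, of each tested gene in the mitosis and cytokinesis group and in the 6 related lists, and, below, of the cell type markers. Vertical bars are list medians and numbers in brackets count the genes. Cenpb, at -1.39, lies apart at the left of the upper panel, and the skeletal muscle and bone markers lie far below 0 in the lower one.

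The differences were also read by promoter element. The 13 genes with TTTGAA or TTCGAA in a window had a median difference of 0.078 (range -0.35 to 0.29), and the 20 tested genes without one had 0.068 (range -0.27 to 0.43). Of 15 tested genes with 2 or more CCAAT boxes, 12 lay above 0 (55.7% of all genes did), with a median of 0.205 and a range of -0.35 to 0.43. Of 18 genes with 0 or 1 box, 9 lay above 0, with a median of -0.016 and a range of -0.27 to 0.39. Kif4 is among the 12 and gives each 0.43 above, and it was tested through its KO calls alone. The values are those of the brightest probe sets. Among the 12, Spc25, Cdc20 and Top2a had a further tested probe set below 0 (-0.65, -0.15 and -0.034). Those of Bub1 and Bub3 lay above 0 (0.28 and 0.27). The splits by element are descriptions of overlapping ranges, without a test.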

How the data were processed

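RNA from 2 KO and 2 WT pools was hybridised to Affymetrix MOE430v2 arrays. Per the submitters' processing notes, MAS5 produced the deposited signals, which are linear intensities, and the 4 arrays share a 2%-trimmed mean of 150. Per the file headers, each probe set has a detection p-value and call. The deposited signal log ratio, on a log2 scale per the file headers, was not used, because its baseline array is not named.

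After removal of 64 control probe sets, 45037 of 45101 remained. The platform annotation supplied gene names, with symbols updated through gene identifiers. Signals were taken to log2 (0 set to 0.1). A probe set needed Present calls on both KO arrays or both WT arrays, and the 19065 that had them were fitted with limma 3.58.1 in R 4.3.3 (lmFit and eBayes with a variance trend), with Benjamini-Hochberg adjustment over all of them and a threshold of 0.05. The fit was tested on simulated data. Values are differences ± standard errors with 95% intervals from the moderated fit. The p-values rest on the spread between pools, which may be partly technical. The fit draws that spread toward the one of probe sets with similar signal. The number of arrays limits the precision.

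Members named in full are those past the threshold, the 8 with the smallest p, and the largest and smallest difference in each role. From other lists, genes past the threshold and those with the smallest p were named. Members and lists were chosen with earlier results of these data known. Replicate numbers were not shown to pair the pools: the KO and WT replicate differences had r = -0.0113 across probe sets. Alternatives were normalization, offset, filter, variance model, replicate block and leaving out each array.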

Additional observations from a re-analysis of the deposited data

How the results depend on the processing

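The count of mitosis and cytokinesis probe sets past the threshold was 0 in 12 of 13 settings. With the replicate block it was 1, the dimmer tested probe set of Bub1b (limma adjusted p 0.0403), and the smallest adjusted p over the settings ran from 0.0403 to 0.313. Over all probe sets, 256 passed, against 721 with the replicate block, 37 without the filter on detection, 23 without the variance trend, 484 without KO replicate 1 and 124 without WT replicate 1. The median difference of the 39 genes was 0.031 to 0.153 when 1 array was left out and -0.0013 as the mean over tested probe sets. With the replicate block, Mapre1 (at its brightest probe set) and Cdkn1a also passed (limma adjusted p 0.0222 and 0.0405). Without the variance trend, their limma adjusted p was 0.315 and 0.312. Of 539 recomputed values of single genes, 36 reversed, in 18 genes, none with a main difference beyond 0.29 in size. As the mean over tested probe sets, Cdc20 was -0.038, Pttg1 -0.031, Aurkb -0.068, Cenpe -0.34, Spc25 -0.22 and Nusap1 -0.24. With quantile normalization, Ccna2 was -0.0078, Cdc25b -0.010 and Ndc80 0.033. With median centring, Ccna2 was -0.0014, Cdc25b -0.027, Ttk -0.0068 and Cenpe -0.0014. With 1 array left out, the log2 difference ranged from -0.074 to 0.133 for Ccna2, -0.166 to 0.174 for Cdc25b, -0.067 to 0.0029 for Aurka, -0.65 to 0.114 for Nek2, -0.0071 to 0.177 for Bub3, -0.26 to 0.31 for Ttk, -0.0094 to 0.165 for Cdc20, -0.129 to 0.205 for Pttg1, -0.233 to 0.022 for Espl1, -0.064 to 0.255 for Aurkb, -0.109 to 0.267 for Incenp, -0.147 to 0.206 for Cenpe, -0.40 to 0.33 for Ndc80, -0.259 to 0.112 for Kif11, -0.198 to 0.032 for Prc1 and -0.145 to 0.142 for Ect2. The other 21 genes kept their sign in the mean over probe sets and in each of these 13 settings that fitted them. Kif4 was not in the fit of probe sets Present on all 4 arrays. The cause of the reversals was not tested. The planned comparison with the deposited signal log ratio was not run, because its baseline array is not named.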
